A study of Mus musculus with 6 samples.

Results

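Amino acids cross membranes through solute carriers, each of which takes a limited set of them. The genes described here are those whose symbols begin Slc1a, Slc3a, Slc6a, Slc7a, Slc36a, Slc38a or Slc43a and which a probe set with a single gene symbol measures. By that rule 64 of 19938 genes were members, through 66 probe sets, and a gene with more than 1 was represented by its brightest on average. Of the 64, 62 encode carriers or their partner chains. The other two, Slc7a6os and Slc6a19os, are opposite-strand genes that carry a transporter's name. The opposite-strand genes Slc36a1os and Slc36a3os were not analysed here.

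Affymetrix Mouse Gene 1.0 arrays, 6 in all, gave the expression values. Marrow from the leg bones of C57B/6 mice had been grown for 6 days with 20 ng/ml GM-CSF, a cytokine that drives myeloid growth, and the labels divide the cells into a dendritic (n = 3 arrays) and a macrophage (n = 3 arrays) population, both unstimulated. Beyond the strain, the labels give no genotype, age or sex, and they do not name the markers of the separation. Both populations share the GM-CSF exposure. The labels do not say that replicates came from separate mice or cultures, so p-values measure only the spread among these 6 arrays, and that spread may be technical.

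The labels were checked against marker genes. Of 9 dendritic markers 8 were higher in the dendritic population and 1, Kmo, was lower, and all 7 measured macrophage markers were lower. Of other cell types, 1 of 5 B cell markers was higher (Cd79a, by 0.81). Lower were 1 of 9 neutrophil markers (Mpo, by -0.74) and 1 of 6 stromal markers (Lepr, by -2.58). None of 6 T and NK cell, 6 mast cell and basophil or 3 erythroid markers passed. Higher and lower here mean a limma adjusted p under 0.05, which 9.98% and 11.6% of all genes reached in those directions. In cell populations, fewer cells of a type and less RNA per cell cannot be told apart.

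Exchangers of the Slc7a family are light chains, most of which reach the surface only when bound to the heavy chain Slc3a2 (CD98) or Slc3a1. Transport is classed into systems by substrate: system L moves large neutral amino acids, y+ cationic ones, xc- cystine against glutamate, A and N small neutral amino acids and glutamine, and ASC alanine, serine and cysteine. Some carriers of the Slc36a and Slc38a families sit on lysosomes, where they let amino acids out and take part in sensing by the kinase complex mTORC1. In macrophages cationic carriers supply arginine to nitric oxide synthase and arginase.

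Levels are deposited log2 values. Differences are log2 differences, positive where the dendritic mean was higher, and are given ± standard error with n = 3 arrays in each population. A gene was called at a limma adjusted p (Benjamini-Hochberg over all 19938 genes) under 0.05. Of the 64 genes 14 were called, 10 lower and 4 higher in the dendritic population. This share, 21.9%, lay next to the 21.6% of all genes called. Lower calls were 15.6% of the members against 11.6% of all genes, and higher calls 6.25% against 9.98%. Of the 62 transporter genes alone 10 were lower and 3 higher, the other higher call being that of Slc7a6os. Differences of at least 1 (2-fold) among called genes were found for 9 members, or 14.1% against 10.3% of all genes. Of these 8 were lower (12.5% of the members against 5.82% of all genes) and 1 was higher (1.56% against 4.47%). The populations did not overlap in 18 members (28.1%) and in 34.0% of all genes. The median difference of the members was -0.01, and that of all genes 0.03. Of the 10 lower calls 9 were kept in all 17 other ways of processing and 1, that of Slc6a4, in 4 of them. In 35 members both population means lay under 5.13, the median gene level, and 1 of these was called.

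**Figure D1:**
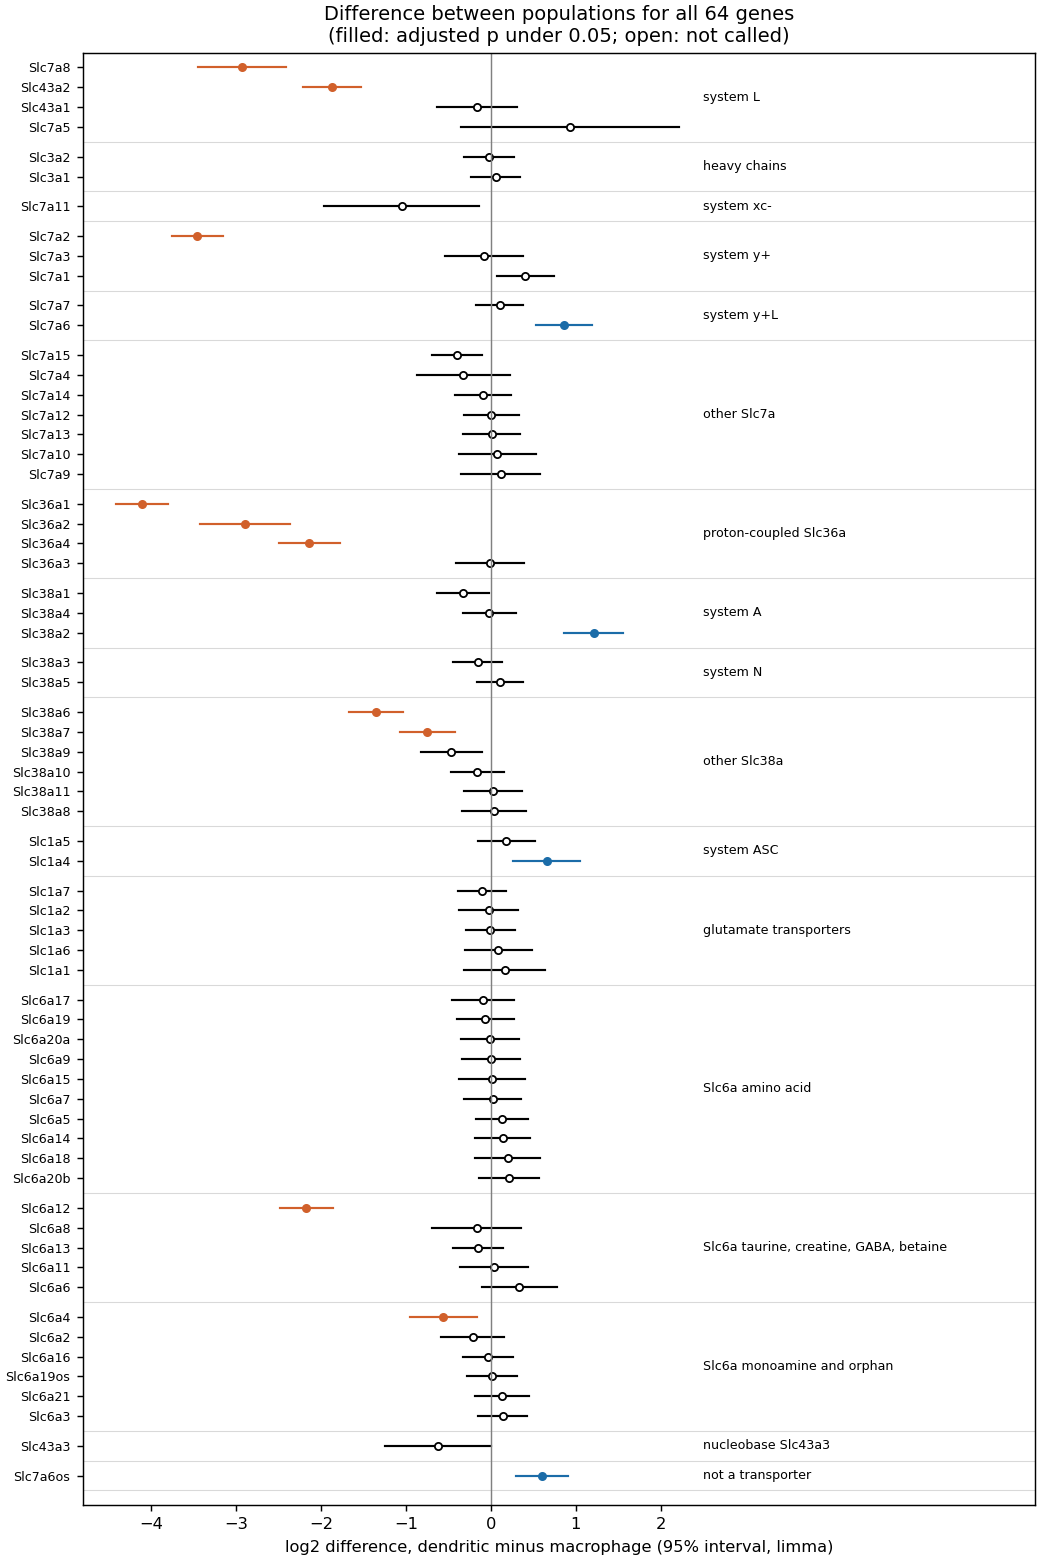
Log2 difference between the dendritic and macrophage populations for all 64 genes (points, with 95% limma intervals), grouped by transport system. Of the 14 filled points (adjusted p under 0.05), 10 lie left of zero (lower in the dendritic population), from -4.10 for Slc36a1 to -0.56 for Slc6a4. The other 4 lie right of it, up to 1.21 for Slc38a2, and include Slc7a6os, which is no transporter.

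The proton-coupled carriers of the Slc36a family held the largest difference of all members. Of 4 measured genes 3 were lower in the dendritic population and none was higher (all genes 11.6% and 9.98%), with a median difference of -2.51. Slc36a1 (probe set 10376216), a carrier of glycine, alanine and proline found on lysosomes, read 4.37, 4.26 and 4.40 on the dendritic arrays and 8.58, 8.54 and 8.23 on the macrophage arrays. Every dendritic array thus lay under the median gene level, and every macrophage array far above it. The difference was -4.10 ± 0.14, or 17.2-fold (limma adjusted p = 3.24e-07).

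Slc36a2 (probe set 10386020), a close relative with similar substrates, read 4.82, 4.94 and 5.35 in the dendritic and 8.37, 7.47 and 7.94 in the macrophage population. It was lower by 7.42-fold (-2.89 ± 0.23, limma adjusted p = 3.12e-05). Slc36a4 (probe set 10583326), a high-affinity carrier of proline and tryptophan, read 5.41, 4.98 and 5.21 against 7.52, 7.34 and 7.15, a difference of -2.14 ± 0.16 (limma adjusted p = 1.76e-05). For these 3 genes the populations did not overlap. Slc36a3 read between 4.17 and 4.69 on all arrays and differed by -0.01 ± 0.18 (limma adjusted p = 0.983, interval -0.41 to 0.39). In the RefSeq gene order Slc36a3, Slc36a2 and Slc36a1 are direct neighbours on chromosome 11, so the called genes stand beside a gene with no measured difference. RMA compresses differences of dim probe sets, and folds of such genes hold on this scale and do not measure transcript number.

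**Figure D2:**
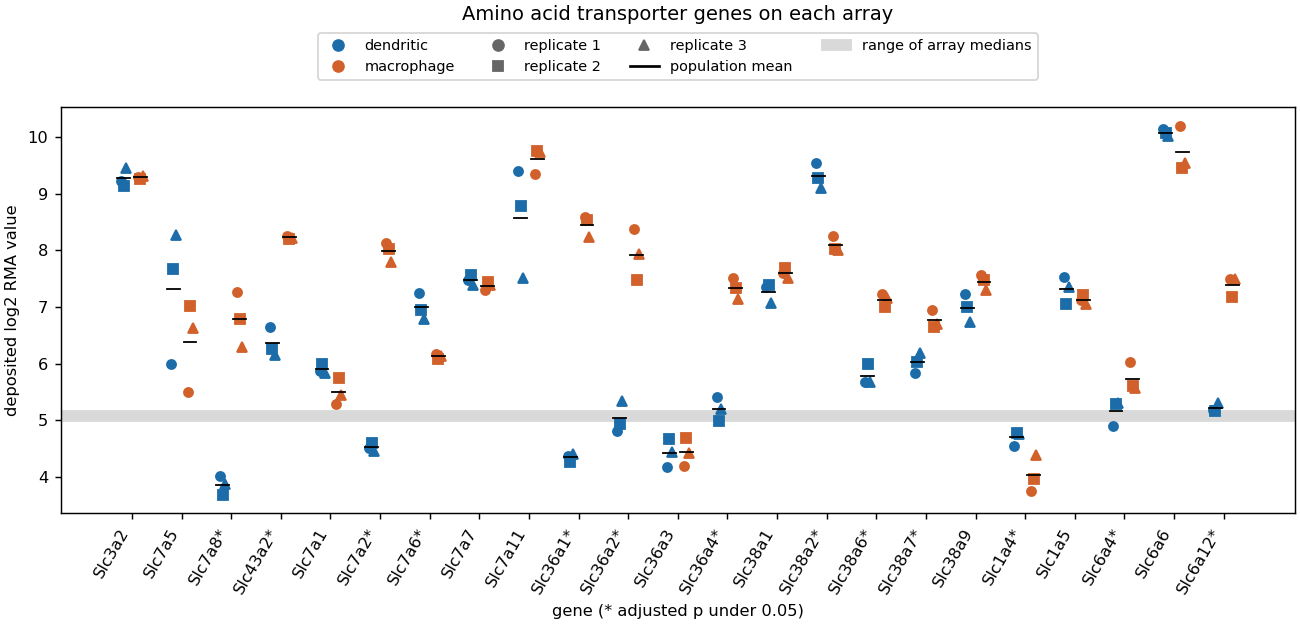
Deposited log2 values on each array for the members described in full and their nearest relatives, with replicates as symbols and population means as lines. Slc36a1, Slc7a2 and Slc7a8 lie under the grey band of array medians (4.99 to 5.16) on all dendritic arrays and above it on all macrophage arrays, while Slc3a2 lies near 9.3 in both.

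Cationic amino acids enter through system y+. Slc7a2 (CAT2, probe set 10571444), the arginine carrier of activated macrophages, read 4.52, 4.61 and 4.46 in the dendritic and 8.13, 8.03 and 7.80 in the macrophage population, with no overlap. It was lower by 11.0-fold (-3.45 ± 0.13, limma adjusted p = 5.48e-07). Its widely expressed relative Slc7a1 (CAT1, probe set 10535852) read 5.88, 6.00 and 5.84 against 5.29, 5.75 and 5.46, so that each dendritic array was above each macrophage array. This difference of 0.41 ± 0.15 was not called (limma adjusted p = 0.0887). Blocking arrays by their number brought a call (limma adjusted p = 0.0434), as did a repeated quantile normalization (0.0369), within 0.0369 to 0.258 over the alternatives. Slc7a3 (CAT3) stayed between 3.65 and 4.29 on all arrays and differed by -0.08 ± 0.20.

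System L gave differing values for its members. Slc7a8 (LAT2, probe set 10419854), a light chain that exchanges large and small neutral amino acids, read 4.03, 3.69 and 3.88 in the dendritic and 7.27, 6.80 and 6.30 in the macrophage population. It was lower by 7.58-fold (-2.92 ± 0.23, limma adjusted p = 2.47e-05), and the populations did not overlap. Slc43a2 (LAT4, probe set 10378649), a uniporter that needs no heavy chain, read 6.65, 6.27 and 6.16 against 8.26, 8.20 and 8.23, lower by 3.66-fold (-1.87 ± 0.15, limma adjusted p = 3.03e-05). Its relative Slc43a1 (LAT3) lay between 3.82 and 4.67 on all arrays and differed by -0.16 ± 0.21 (limma adjusted p = 0.729).

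Slc7a5 (LAT1, probe set 10582275), the light chain that takes in leucine and tryptophan in proliferating and activated cells, read 5.99, 7.68 and 8.27 in the dendritic population. In the macrophage population it read 5.50, 7.02 and 6.62, and the populations overlapped. Replicate 1 was the lowest array of each population, and in each same-numbered couple the dendritic array was the higher, by 0.49, 0.66 and 1.65. The difference of 0.93 ± 0.56 was not called (limma adjusted p = 0.343, interval -0.35 to 2.21). Blocked by replicate number it was (limma adjusted p = 0.0173), as it was without dendritic replicate 1 (1.59, 0.0238) and without replicate 1 of both populations (1.15, 0.00488), the last chosen after seeing the data. Over all alternatives the adjusted p ran from 0.00488 to 0.743, and the difference itself fell to 0.45 without dendritic replicate 3 and to 0.49 without macrophage replicate 1.

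The arrays numbered 1 also differed in neutrophil markers. The mean log2 level of the 9 markers was 7.66 and 7.84 in dendritic and macrophage replicate 1, and 6.38 to 6.67 in the other four arrays. Retnlg read 7.43 and 7.39 in replicate 1 of each population and 4.25 to 4.33 elsewhere. The part of this in the Slc7a5 values was not tested.

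Slc3a2 (probe set 10465772), the heavy chain shared by LAT1, LAT2, both y+L light chains and xCT, was bright in both populations. It read 9.22, 9.14 and 9.45 in the dendritic and 9.30, 9.27 and 9.31 in the macrophage population, with the macrophage values inside the dendritic range. The difference was -0.02 ± 0.13 (limma adjusted p = 0.954), with an interval from -0.31 to 0.27 and a sign that turned in 6 alternatives. The 2nd heavy chain, Slc3a1, known from kidney and intestine, lay between 3.67 and 3.97 on all arrays and differed by 0.06 ± 0.13 (limma adjusted p = 0.856).

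The y+L light chains, which exchange cationic for neutral amino acids, included a higher member. Slc7a6 (y+LAT2, probe set 10574985) read 7.25, 6.94 and 6.79 in the dendritic and 6.17, 6.08 and 6.14 in the macrophage population, a difference of 0.86 ± 0.14 (1.82-fold, limma adjusted p = 0.00229) without overlap. Slc7a7 (y+LAT1), the light chain mutated in lysinuric protein intolerance, read 7.39 to 7.57 against 7.30 to 7.45 and differed by 0.10 ± 0.12 (limma adjusted p = 0.690, interval -0.17 to 0.38). The neighbouring opposite-strand gene Slc7a6os, which is no transporter, was higher by 0.60 ± 0.14 (limma adjusted p = 0.0109). It read 7.46, 7.20 and 7.55 against 6.88, 6.77 and 6.75. Its call was lost without macrophage replicate 2 (limma adjusted p = 0.0519; 0.00214 to 0.0519 over the alternatives). How far the probe sets of these neighbours tell the strands apart is not stated in the labels.

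Slc7a11 (xCT, probe set 10498024), which brings in cystine for glutathione synthesis, varied widely within the dendritic population. It read 9.41, 8.78 and 7.51 on the dendritic and 9.35, 9.76 and 9.74 on the macrophage arrays, and dendritic replicate 1 lay above macrophage replicate 1. The difference of -1.05 ± 0.40 was not called (limma adjusted p = 0.109). It was -1.47 without dendritic replicate 1 (limma adjusted p = 0.0143) and -0.52 without dendritic replicate 3 (0.185), and it was called with array weights (-1.51, 0.00489) and without replicate 1 of both populations (-1.60, 0.00858). Over the alternatives the adjusted p ran from 0.00489 to 0.244.

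**Figure D3:**
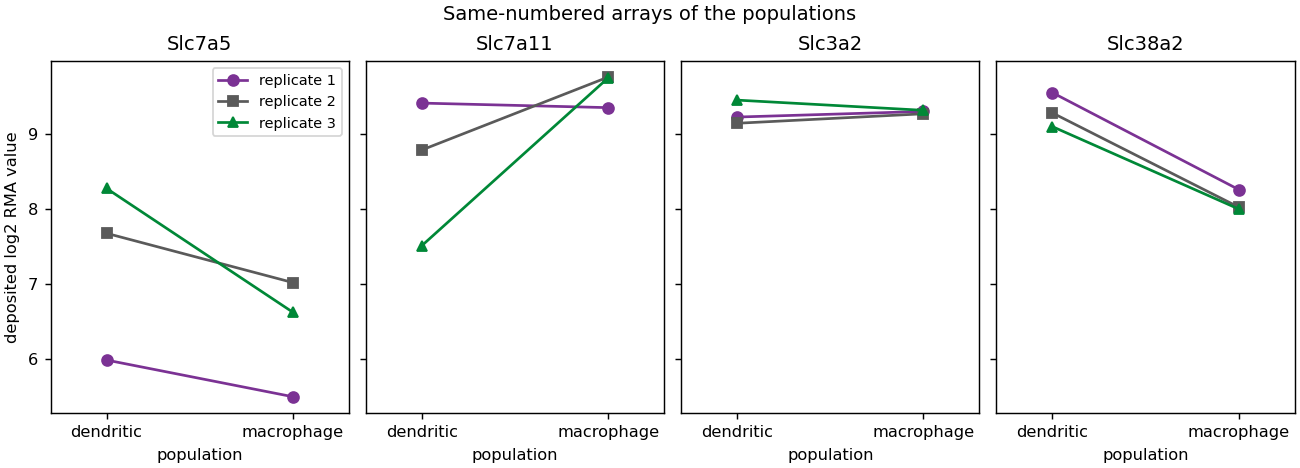
Deposited log2 values of same-numbered arrays of the dendritic and macrophage populations, joined by lines, for Slc7a5, Slc7a11, Slc3a2 and Slc38a2. Slc7a5 is lowest on replicate 1 of both populations (5.99 and 5.50), Slc7a11 spreads from 7.51 to 9.41 in the dendritic population, and Slc38a2 is higher on the dendritic array in all 3 couples.

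Sodium-coupled carriers of system A concentrate small neutral amino acids and glutamine in the cell. Slc38a2 (SNAT2, probe set 10431894), which is known to be induced when amino acids run short, read 9.55, 9.28 and 9.10 in the dendritic and 8.26, 8.02 and 7.999 in the macrophage population. It was the member with the largest called difference upward, 1.21 ± 0.15 or 2.32-fold (limma adjusted p = 0.000439), and the populations did not overlap. Its neighbour in the genome Slc38a1 (SNAT1) read 7.36, 7.38 and 7.07 against 7.60, 7.69 and 7.51, a difference of -0.33 ± 0.14 that was not called (limma adjusted p = 0.133). With array weights it was called (limma adjusted p = 0.0214; 0.0214 to 0.394 over the alternatives). A further probe set of Slc38a1 differed by -0.29. The third system A gene, Slc38a4, lay between 3.54 and 3.86 on all arrays and differed by -0.02 ± 0.14, and the system N genes Slc38a3 and Slc38a5 lay between 3.91 and 4.38 and differed by -0.16 ± 0.13 and 0.11 ± 0.12.

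The other 6 Slc38a genes comprised 2 lower members and none higher (all genes 11.6% and 9.98%). Slc38a6, a poorly characterized carrier, read 5.69, 5.99 and 5.67 in the dendritic and 7.23, 7.004 and 7.16 in the macrophage population, lower by 2.55-fold (-1.35 ± 0.14, limma adjusted p = 0.000133). Slc38a7 (SNAT7), which exports glutamine from lysosomes, read 5.84, 6.04 and 6.19 against 6.95, 6.66 and 6.70 (-0.75 ± 0.14, limma adjusted p = 0.00508). Neither gene's values overlapped between populations. Slc38a9, the lysosomal arginine sensor of mTORC1, read 7.23, 6.996 and 6.74 against 7.57, 7.48 and 7.31 and was not called (-0.46 ± 0.16, limma adjusted p = 0.0691). Blocked by replicate number it was (limma adjusted p = 0.0208), as it was without dendritic replicate 1 (0.0213), within 0.00649 to 0.226 over the alternatives. Its further probe set differed by -0.21.

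System ASC carriers exchange alanine, serine, cysteine and, for Slc1a5, glutamine. Slc1a4 (ASCT1, probe set 10384539) read 4.56, 4.77 and 4.77 in the dendritic and 3.76, 3.97 and 4.39 in the macrophage population, higher by 0.66 ± 0.17 (limma adjusted p = 0.0245) but under the median gene level in both. The call was lost without dendritic replicate 2 (limma adjusted p = 0.0845), dendritic replicate 3 (0.0817), macrophage replicate 1 (0.0718) or macrophage replicate 2 (0.0896), and when all probe sets were tested (0.0606), within 0.00357 to 0.0896 over the alternatives. Without macrophage replicate 2 the members called higher thus numbered 2, Slc7a6 and Slc38a2, in place of 4. Slc1a5 (ASCT2), the main glutamine carrier of many growing cells, read 7.53, 7.05 and 7.35 against 7.12, 7.22 and 7.05 and differed by 0.18 ± 0.15 (limma adjusted p = 0.515, interval -0.16 to 0.53). The 5 glutamate transporters (Slc1a1, Slc1a2, Slc1a3, Slc1a6 and Slc1a7) lay between 3.26 and 4.39 on all arrays, and none was called (all genes 21.6%).

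The Slc6a family also holds carriers of compounds other than amino acids used for protein. None of 10 measured amino acid carriers of the family was called (all genes 21.6%), with differences from -0.09 to 0.21 and levels from 2.53 to 5.78. The close relatives Slc6a20a and Slc6a20b may share probe signal and are uncertain. Slc6a12 (BGT1, probe set 10541333), which carries betaine and GABA, was the member of this family that stood apart. It read 5.19, 5.16 and 5.32 in the dendritic and 7.49, 7.18 and 7.50 in the macrophage population, lower by 4.50-fold (-2.17 ± 0.14, limma adjusted p = 6.98e-06) with no overlap. Its genomic neighbour Slc6a13, also a GABA carrier, lay between 4.19 and 4.58 and differed by -0.15 ± 0.13 (limma adjusted p = 0.534).

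The taurine carrier Slc6a6 was bright in both populations, at 10.14, 10.07 and 10.02 in the dendritic and 10.20, 9.46 and 9.54 in the macrophage population. It was not called (0.34 ± 0.20, limma adjusted p = 0.313). Macrophage replicate 1 was the highest of all 6 arrays, and without it the difference was 0.57 and called (limma adjusted p = 0.0190; 0.0158 to 0.703 over the alternatives). The nucleobase carrier Slc43a3 likewise had macrophage replicate 1 (5.62) apart from macrophage replicates 2 and 3 (6.77 and 6.70), beside 5.64, 5.75 and 5.83 in the dendritic population. Its difference of -0.62 ± 0.28 (limma adjusted p = 0.168) was -0.99 without that array (0.00118; 0.000897 to 0.471 over the alternatives). Macrophage replicate 1 also held the highest neutrophil marker level of the 6 arrays, 7.84, and the part of that in these values was not tested.

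The serotonin carrier Slc6a4 read 4.91, 5.29 and 5.32 against 6.02, 5.60 and 5.57 and was called at the edge of the threshold (-0.56 ± 0.17, limma adjusted p = 0.0492). The call was lost whichever array was left out, in the fit blocked by replicate number (limma adjusted p = 0.0619) and when arrays were centred on their 75th percentile (0.131), within 0.0356 to 0.165 over the alternatives. The remaining monoamine and orphan carriers of the family, Slc6a2, Slc6a3, Slc6a16 and Slc6a21, were not called, nor were the creatine carrier Slc6a8, the GABA carrier Slc6a11 and the 7 other Slc7a genes. Of the latter Slc7a15 came nearest (-0.39 ± 0.13, limma adjusted p = 0.0623), at 3.59 to 4.19 on all arrays. It was called with array weights (limma adjusted p = 0.0244), after a repeated quantile normalization (0.0324) and blocked by replicate number (0.0498), within 0.0244 to 0.256 over the alternatives.

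Unequal change of relatives within a system was read from the difference between both genes on each array, over 6 couples of genes. The change of Slc7a1 exceeded that of Slc7a2 by 3.86, that of Slc7a5 exceeded that of Slc7a8 by 3.85, and that of Slc38a2 exceeded that of Slc38a1 by 1.54. Slc7a6 exceeded Slc7a7 by 0.76, and Slc43a2 against Slc43a1 gave -1.71. These 5 separated the populations completely, with an exact two-sided permutation p of 0.10 (adjusted p = 0.12 over the 6 couples). A p of 0.10 is the smallest that 3 against 3 arrays allow, so the test could not reach 0.05 and decides nothing. Each of these couples holds a gene called without overlap (Slc7a2, Slc7a8, Slc38a2, Slc7a6 and Slc43a2). Slc43a1 lay under the median gene level in both populations. Slc1a4 against Slc1a5 gave 0.47 (exact permutation p = 0.20, adjusted p = 0.20). Both genes of a couple were read on the same array, so these differences do not depend on centring the arrays.

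RefSeq starts (GRCm38.p6) were found for 47 of the 64 members, but not for Slc36a2, Slc7a2 and Slc7a5, whose sequences could not be printed. The 250 bases before the start are printed for 5 members that had a start: 2 lower Slc36a genes, the lower system L gene Slc7a8, the most raised carrier and xCT. The letters searched on both strands were CACGTG, a palindrome bound by Myc and by the lysosomal MiT/TFE factors, TGATGNAA, the core of the element that ATF4 binds with C/EBP proteins in amino acid shortage, and TGACNNNGC, the core of the antioxidant element of NRF2. Matches are in capitals, and none of them overlapped in these 5.
Slc36a1 (chr11:55204090-55204339, + strand): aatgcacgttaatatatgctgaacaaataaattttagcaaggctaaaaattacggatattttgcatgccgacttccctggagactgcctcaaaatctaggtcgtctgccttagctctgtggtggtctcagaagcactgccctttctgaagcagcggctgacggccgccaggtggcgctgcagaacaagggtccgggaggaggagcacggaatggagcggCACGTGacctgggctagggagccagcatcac
Slc36a4 (chr9:15709488-15709737, + strand): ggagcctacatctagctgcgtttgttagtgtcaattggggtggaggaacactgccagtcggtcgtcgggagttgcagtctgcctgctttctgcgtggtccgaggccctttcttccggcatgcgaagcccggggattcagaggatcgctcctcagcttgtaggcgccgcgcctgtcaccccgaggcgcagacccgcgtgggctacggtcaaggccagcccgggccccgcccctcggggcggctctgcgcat
Slc7a8 (chr14:54781887-54782136, - strand): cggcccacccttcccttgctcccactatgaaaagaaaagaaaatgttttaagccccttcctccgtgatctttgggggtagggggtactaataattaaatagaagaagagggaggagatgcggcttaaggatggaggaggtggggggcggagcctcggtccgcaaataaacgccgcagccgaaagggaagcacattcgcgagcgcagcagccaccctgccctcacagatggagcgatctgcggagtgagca
Slc38a2 (chr15:96699729-96699978, - strand): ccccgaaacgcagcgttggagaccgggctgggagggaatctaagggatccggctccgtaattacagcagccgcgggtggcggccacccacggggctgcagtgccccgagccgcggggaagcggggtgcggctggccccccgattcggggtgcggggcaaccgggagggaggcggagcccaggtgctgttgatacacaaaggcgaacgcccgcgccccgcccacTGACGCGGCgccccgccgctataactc
Slc7a11 (chr3:50443614-50443863, - strand): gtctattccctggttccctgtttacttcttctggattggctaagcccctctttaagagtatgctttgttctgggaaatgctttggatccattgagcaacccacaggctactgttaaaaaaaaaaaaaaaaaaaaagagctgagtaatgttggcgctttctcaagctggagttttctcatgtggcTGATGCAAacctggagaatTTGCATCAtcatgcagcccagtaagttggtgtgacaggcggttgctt
Slc36a1 held CACGTG 31 to 26 bases before the start, Slc38a2 held TGACGCGGC at 27 to 19, and Slc7a11 held TGATGCAA at 66 to 59 and its reverse complement TTGCATCA at 47 to 40. No match to the 3 motifs lay in these windows of Slc36a4 and Slc7a8. CACGTG was present in 9 of 68 member promoters (13.2%) and 6.02% of all 32851 promoters, TGATGNAA in 4 (5.88%) and 3.45%, and TGACNNNGC in 9 (13.2%) and 10.2%. Genes with several starts count more than once in these shares. Besides Slc36a1, CACGTG lay before Slc38a7, which was lower, and before 7 genes that were not called (Slc1a6, Slc1a7, Slc38a5, Slc43a1, Slc6a16, Slc6a3 and Slc7a14). TGACNNNGC lay before Slc38a2 and Slc7a6, which were higher, and before 6 genes that were not called (Slc43a1, Slc6a11, Slc6a13, Slc6a16, Slc6a9 and Slc7a1), and TGATGNAA lay before 3 genes that were not called (Slc7a11, Slc6a21 and Slc7a7). A match describes letters only.

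Other genes of amino acid handling were read from 5 lists, of whose 120 genes 111 were measured. Among 16 carriers of other families 6 were lower and 1 was higher (all genes 11.6% and 9.98%). Their median difference was -0.18 (all genes 0.03). The aromatic amino acid carrier Slc16a10 was lower by 1.70 on the log2 scale (-1.70 ± 0.31, limma adjusted p = 0.00380) and the lysosomal cystine exporter Ctns differed by -1.26 ± 0.18. The lysosomal sialic acid and acidic amino acid carrier Slc17a5 (-0.79 ± 0.13) and the lysosomal cysteine carrier Mfsd12 (-0.69 ± 0.20, limma adjusted p = 0.0358) followed. The mitochondrial glycine carrier Slc25a38 was the higher member (0.81 ± 0.17, limma adjusted p = 0.00819). The count of 7 called carriers became 4 with 75th percentile centring and without macrophage replicate 2. The call of Mfsd12 was lost in 6 settings, among them the fits that left out macrophage replicate 2, macrophage replicate 3 or dendritic replicate 3 (limma adjusted p up to 0.120, from 0.00820).

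Genes by which amino acids reach mTORC1 differed in both directions. Of 32 measured 10 were lower and 7 higher (all genes 11.6% and 9.98%), with a median of -0.14. Castor2 and the arginine sensor Castor1 were higher by 3.05 ± 0.13 (limma adjusted p = 6.87e-07) and 2.25 ± 0.36 (0.00174). Castor2 read 9.33, 9.33 and 9.50 in the dendritic and 6.35, 6.22 and 6.43 in the macrophage population. The Sestrin Sesn3 (2.39 ± 0.25) and the mTORC1 scaffold Rptor (1.97 ± 0.13) were higher too. Lower were the folliculin partner Fnip2 (-2.28 ± 0.21, limma adjusted p = 6.49e-05), the Ragulator subunits Lamtor4 (-2.14 ± 0.16) and Lamtor3 (-1.49 ± 0.12), which anchor the Rag GTPases to lysosomes, and Sesn1 (-1.48 ± 0.14).

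The integrated stress response is the pathway that raises amino acid carriers through ATF4. Of 24 of its genes 5 were higher and 3 lower (all genes 9.98% and 11.6%), with a median of 0.01. The phosphatase subunit Ppp1r15a (2.55 ± 0.14, limma adjusted p = 2.94e-06), the mitochondrial folate enzyme Mthfd2 (2.53 ± 0.28), Sesn2 (2.16 ± 0.19) and the mTORC1 inhibitor Ddit4 (0.86 ± 0.20) were the largest upward. Cebpb (-2.18 ± 0.20), a partner of ATF4, and the kinases Eif2ak2 (-0.86 ± 0.22, limma adjusted p = 0.0228) and Eif2ak1 (-0.84 ± 0.20, 0.0133) were lower. Atf4 itself differed by 0.09 ± 0.15 (limma adjusted p = 0.803) and the ATF4 target asparagine synthetase Asns by 0.05 ± 0.14 (0.892), both named after their values were seen. The 8 called genes became 5 without dendritic replicate 3 and without macrophage replicate 2. Without dendritic replicate 3 the adjusted p of Eif2ak1 was 0.0538 and that of Eif2ak2 0.0857, and without dendritic replicate 2 they were 0.0577 and 0.0880, within 0.000442 to 0.0577 and 0.000553 to 0.0880. Without macrophage replicate 1 or macrophage replicate 2 Eif2ak2 lost its call too (limma adjusted p = 0.0560 and 0.0790). Ddit4 lost its call without macrophage replicate 2 (0.0636; 0.00289 to 0.0636).

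Of 24 amino acid enzymes 6 were higher and none lower (all genes 9.98% and 11.6%), with a median of 0.11. The tryptophan-degrading Ido1 (1.54 ± 0.24, limma adjusted p = 0.00144), the arginine-making lyase Asl (1.28 ± 0.13, 0.000125), proline dehydrogenase Prodh (1.14 ± 0.18) and the proline-making Aldh18a1 (0.99 ± 0.21) were the largest. The arginases Arg1 and Arg2 and the nitric oxide synthase Nos2, which use arginine, are named after their values were seen. Arg2 differed by -0.002 ± 0.28 (limma adjusted p = 0.998). Nos2 lay between 4.35 and 4.63 on all arrays and differed by 0.03 ± 0.14 (limma adjusted p = 0.948). Arg1 read 4.88, 4.92 and 5.18 in the dendritic and 10.004, 5.98 and 6.27 in the macrophage population. For Arg1, macrophage replicate 1 stood far above all others. The difference of -2.43 ± 0.88 was not called (limma adjusted p = 0.0900). It was called, and smaller, without that array (-1.13, limma adjusted p = 0.00125), and it was called without macrophage replicate 2 (-3.14, 0.0366), without replicate 1 of both populations (-1.08, 0.00128) and blocked by number (0.0442), within 0.00125 to 0.207.

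Of 15 genes of cystine use and glutathione 7 were lower and none higher (all genes 11.6% and 9.98%), with a median of -0.52. Heme oxygenase Hmox1 was lower by 3.95 on the log2 scale (-3.95 ± 0.32, limma adjusted p = 3.25e-05), reading 6.30, 7.03 and 6.27 against 11.17, 9.89 and 10.38. The glutathione synthesis subunit Gclm (-1.86 ± 0.22), the antioxidant transcription factor Nfe2l2 (-1.55 ± 0.18) and the quinone reductase Nqo1 (-1.28 ± 0.26, limma adjusted p = 0.00623) were also lower. The partner subunit of Gclm, Gclc, named after its values were seen, had the higher mean in the dendritic population and was not called. Without dendritic replicate 3 the 7 calls became 4.

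**Figure D4:**
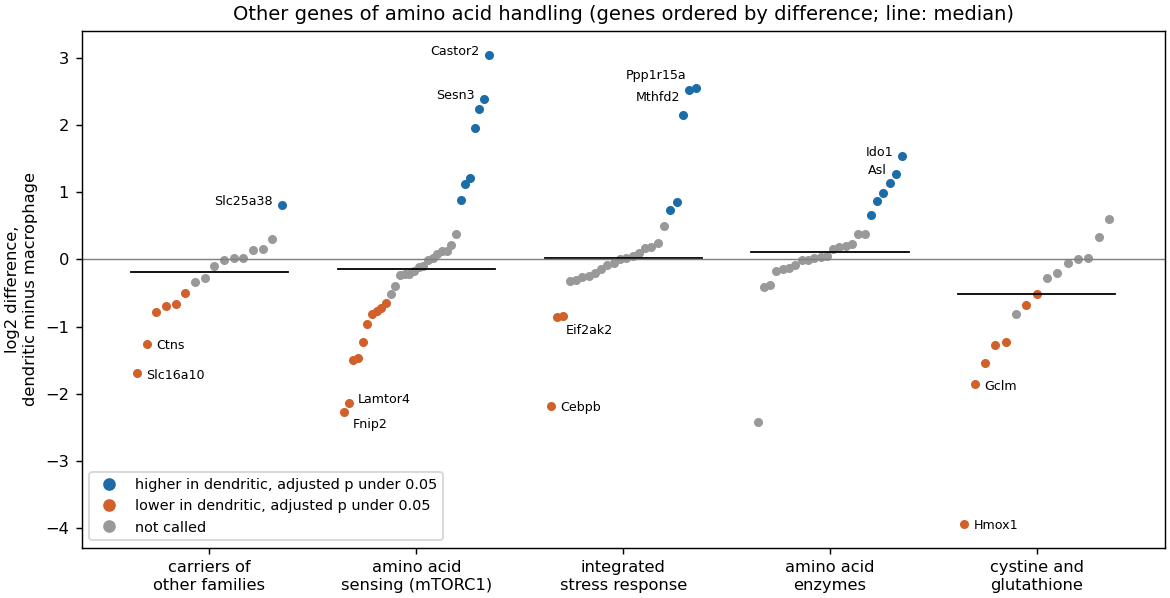
Log2 difference between the dendritic and macrophage populations for 111 other genes of amino acid handling in 5 lists, each point a gene, ordered by difference within its list, with the median as a line. Castor2 is the highest point at 3.05 and Hmox1 the lowest at -3.95. The enzyme list has 6 points called higher and none called lower (all genes 9.98% and 11.6%), although Arg1, not called, lies at -2.43.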

How the data were processed

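The deposited log2 values, for 35556 probe sets on each array, come from the authors' RMA run, for which the submitters' processing notes name R 3.0.2. Its array set, probe set definition and filters are not stated. There are no detection calls, and the number of arrays limits the precision. In the platform's gene annotation, 21789 probe sets had a single symbol, 1621 several and 12146 none. Symbols were checked by Entrez identifier in RefSeq (GRCm38.p6; 21698 found), and the probe set with the highest mean stood for a gene, which left 19938 genes.

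The test was limma 3.58.1 in R 4.3.3 (lmFit, eBayes, two-sided) on the 6 arrays with a term for population, no filter and Benjamini-Hochberg adjustment over all genes, and it was tested on simulated data. Tables and plots used Python 3.11.15, pandas 2.3.3 and matplotlib 3.10.9. Members and lists were chosen with earlier results of these data known. Named are called members, members of the main systems and, for each list, up to 4 called genes in each direction. Nearest relatives of called members are named too. Slc6a6, Slc43a3, Slc38a9 and Slc7a15 were added by hand with earlier results known. Other list genes are marked in the text as named after their values were seen, and further members that were not called are only listed. Alternatives changed the centring, normalization, filter, probe set rule, variance model, array weights, block or arrays.

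The titles number the replicates 1 to 3 in each population. Deviations from the population means correlated across genes at 0.385, 0.147 and 0.272 for numbers 1, 2 and 3. For dendritic replicate 2 the highest value was that with macrophage replicate 3 (0.155). Dendritic replicate 3 and macrophage replicate 2 gave 0.128, and the remaining unlike-numbered couples gave -0.320 to -0.205. These values do not settle whether the numbers pair the arrays. The main fit did not pair them, and the block by replicate number was an alternative. Blocked values stand beside a gene named with its values where they change its call, and the blocked counts of lists are in the closing section.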

Additional observations from a re-analysis of the deposited data

How the results depend on the processing

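Results were recomputed in 17 other ways, of which the fit without replicate 1 of both populations was chosen after seeing the data. Of the 14 members called, 11 were called in every alternative that could be run for them, the exceptions being Slc1a4, Slc6a4 and Slc7a6os. Fits that leave out dim genes gave no value for the dimmest members. Members called ranged from 11 to 16 over the fits without 1 array, and numbered 17 in the fit blocked by replicate number, 19 with array weights and 18 without replicate 1 of both populations. Members called higher ranged from 2 to 5 without 1 array. Of the lists, called carriers of other families ranged from 4 to 8, stress response genes from 5 to 8 and glutathione genes from 4 to 8 without 1 array, and the carriers numbered 4 with 75th percentile centring, which moved the median of all genes by 0.0987. For dendritic minus macrophage, all genes, the block by replicate number gave 5207 calls against 4312, and apart from Slc7a5, Slc7a1, Slc38a9, Slc7a15, Slc6a4 and Arg1 it changed no other call among the members and the list genes named with their values. In that fit 9 amino acid enzymes were called against 6, 19 genes of mTORC1 sensing against 17, 9 of the stress response against 8, 8 of glutathione against 7 and 7 carriers against 7.

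Differences were recomputed for 33 members and the list genes named with their values, except Arg2 and Nos2. Among these the sign turned for 8 genes, none called in either fit, and the cause was not tested. Centring on the 75th percentile gave 0.0770 for Slc3a2, 0.0807 for Slc38a4, 0.0183 for Slc7a3 and 0.0874 for Slc36a3. Slc3a2 differed by 0.0039 after a repeated quantile normalization, by 0.0323 with array weights and by 0.0046 without replicate 1 of both populations, and Slc43a1 by 0.0203 with array weights. Over the fits without 1 array Slc3a2 ranged from -0.111 to 0.0434, Slc3a1 from -0.0247 to 0.125, Slc38a4 from -0.0919 to 0.0616, Slc43a1 from -0.328 to 0.0966, Slc7a3 from -0.262 to 0.0839, Slc36a3 from -0.133 to 0.116, Atf4 from -0.0487 to 0.204 and Asns from -0.0426 to 0.154.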
